A study of Mus musculus with 6 samples.

Results

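The genes described here encode secreted proteins of the TGF-beta and activin branch of the TGF-beta superfamily. They were chosen by name, with earlier results of these data known. They are the 3 TGF-beta ligands (*Tgfb1*, *Tgfb2* and *Tgfb3*), the 3 inhibin and activin subunits *Inha*, *Inhba* and *Inhbb* and the 4 latent TGF-beta binding proteins (*Ltbp1* to *Ltbp4*), 10 of the 55809 genes counted. HC11, a mouse mammary epithelial cell line, was cultured in medium with BMP7 (3 libraries) or in medium without it (Ctrl, 3 libraries), and both groups were the same line with no other allele or agent named. HC11 cells in the study were starved for 16 h and given BMP7 at 50 ng per mL for 30 min or 6 h, and the duration behind these libraries is not given in the sources used here. Nothing in the labels says that libraries of a group came from separate cultures, so a p-value measures the spread between these libraries, which may be technical. The comparison asks which secreted factors of this branch had more or less mRNA in cells given BMP7.

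A TGF-beta ligand leaves the cell as a dimer bound to its own propeptide, which keeps it inactive. Latent TGF-beta binding proteins tie this complex to the extracellular matrix, from where integrins and proteases release the ligand. Activins are dimers of beta subunits and signal, as TGF-betas do, through Smad2 and Smad3, while a beta subunit joined to the alpha subunit makes an inhibin, which opposes activin at its receptors. In the mammary gland TGF-betas are known as inhibitors of ductal growth.

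Libraries held between 14607938 counted fragments (BMP7 replicate 1) and 23748970 (BMP7 replicate 3), and the Ctrl libraries between 19858701 and 20327200. Levels are given as CPM, counts scaled to the TMM-normalized library size. To be called, a gene needed a fold change over 1.2 and an adjusted p below 0.05 from edgeR (quasi-likelihood test, 15733 genes, Benjamini-Hochberg). The known BMP target *Id1* had a log2 fold change of 4.28. All 9 listed mammary epithelial markers had counts and 8 were tested, with *Krt19* below the filter, 1 called higher (*Krt14*) and 3 called lower (*Epcam*, *Cdh1* and *Krt18*). Per kilobase, the basal keratins *Krt5* and *Krt14* stood at means of 1203 and 1985 CPM in Ctrl, against 32.3 and 34.4 for the luminal keratins *Krt8* and *Krt18*. The summed adipocyte markers ranged from 11.2 to 19.0 CPM in Ctrl and were 20.7 CPM in BMP7 replicate 1, but reached 69.1 CPM in BMP7 replicate 3 and 60.9 CPM in BMP7 replicate 4, and all 6 of the 9 that were tested were called higher. The summed macrophage markers ranged from 45.2 to 48.8 CPM in Ctrl and were 46.5 CPM in BMP7 replicate 1, but only 24.7 and 23.0 CPM in the other BMP7 libraries, with 2 of 6 tested called lower. The 2 were *Lyz2*, at a mean of 26.2 CPM in Ctrl and 6.76 and 6.94 CPM in BMP7 replicates 3 and 4, and *Ptprc*. *Cd68* alone among the 6 had a positive log2 fold change (0.27, not called), with every BMP7 library above Ctrl.

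Of the 10 members, 9 passed the expression filter and *Inha* did not. With BMP7, 5 were called higher (*Tgfb1*, *Tgfb2*, *Tgfb3*, *Inhba* and *Ltbp2*), 1 was called lower (*Inhbb*) and 3 were not called (*Ltbp1*, *Ltbp3* and *Ltbp4*). Over all genes tested, 11.4% were called, 5.99% higher and 5.38% lower. The median log2 fold change of the 9 was 0.66, against -0.0062 over all genes tested. Since the members were chosen with earlier results of these data known, these contrasts describe the list and do not test it. The groups did not overlap for 7 of the 9, with BMP7 above for 6 and below for 1, where 29.8% of all genes tested were separated in either direction. With BMP7 replicate 1 as the sole BMP7 library, the log2 fold changes against Ctrl were 0.65 for *Tgfb1*, 0.64 for *Tgfb2*, 1.41 for *Tgfb3*, 0.63 for *Inhba*, 1.59 for *Ltbp2* and -0.62 for *Inhbb*. These are given as values alone, since 1 library has no spread of its own. In RNA from whole cultures, more cells with a transcript and more of it per cell cannot be told apart.

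**Figure D1:**
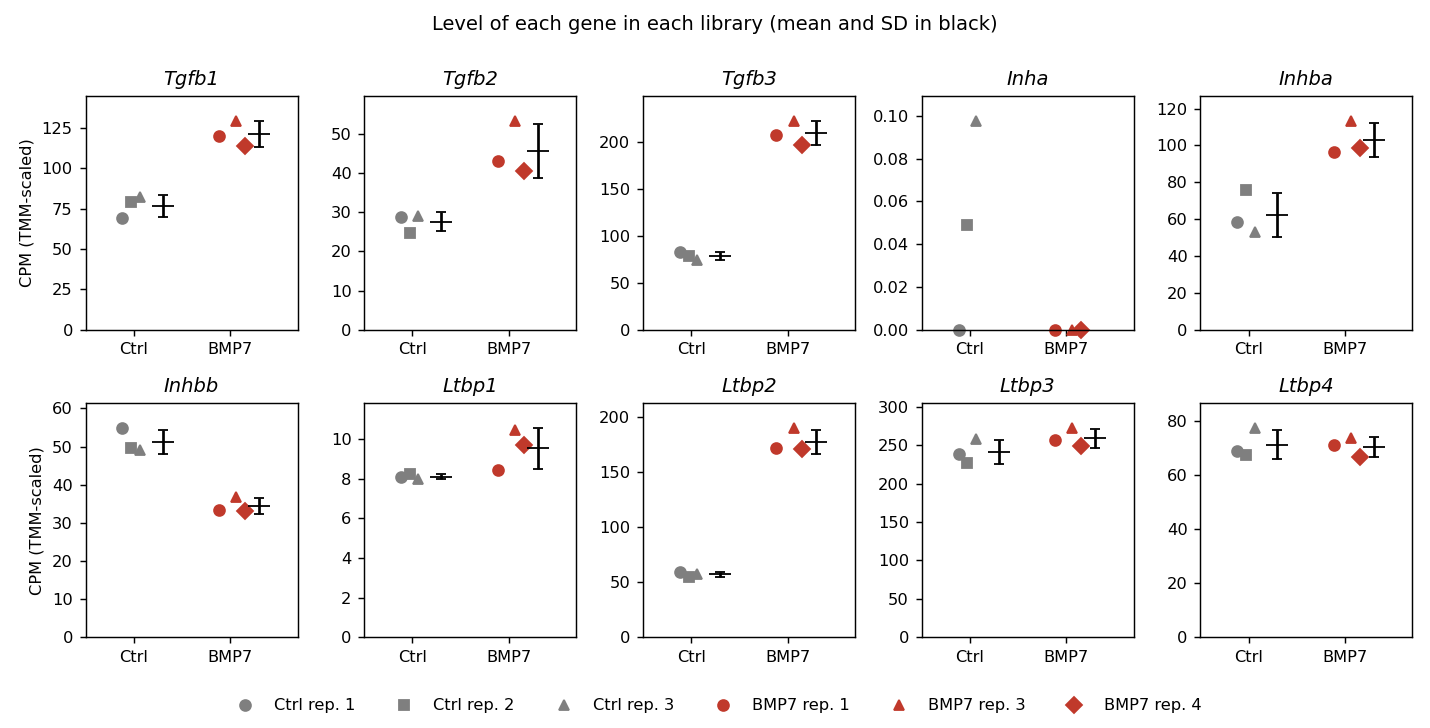
Level of each of the 10 genes in CPM in each of the 6 libraries, with a point for a library and a bar with whiskers for the mean and SD of the 3 libraries of a group (not drawn for *Inha*), each panel on its own axis. The 3 BMP7 points lie above the 3 Ctrl points for *Tgfb1*, *Tgfb2*, *Tgfb3*, *Inhba*, *Ltbp1* and *Ltbp2* and below them for *Inhbb*, and *Inha*, which was not tested, stays under 0.1 CPM.

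*Tgfb3* had the largest rise of the ligands. The gene lies on the minus strand of chromosome 12 from 86103519 to 86125815 in the mm39 annotation, and TGF-beta 3 is best known for its part in palate fusion. Ctrl replicates 1, 2 and 3 measured 83.1, 78.2 and 74.5 CPM, and BMP7 replicates 1, 3 and 4 measured 208, 223 and 197.7 CPM. The lowest BMP7 library was thus far above the highest Ctrl library. The mean went from 78.6 ± 4.31 to 209.7 ± 12.8 CPM (SD, n = 3 libraries each), a 2.67-fold rise (log2 fold change 1.42, standard error 0.07, adjusted p = 2.93e-10 from edgeR), and it ranked 163 among all genes tested. Of its exon bases 12.4% are shared with genes on the other strand, *Gm37804* and *Gm48008*, and since strand was not used in counting, fragments there went to neither gene. Those 2 genes had at most 6 counts in any library.

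*Tgfb1*, the most widely expressed TGF-beta, lies on the plus strand of chromosome 7 from 25386427 to 25404502. It measured 69.2, 79.2 and 82.3 CPM in the Ctrl libraries and 120.3, 129.65 and 114 CPM in the BMP7 libraries. The groups did not overlap, and Ctrl replicate 1 was the lowest of all. The rise was 1.58-fold (log2 fold change 0.66, standard error 0.07, adjusted p = 9.36e-06 from edgeR).

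*Tgfb2*, which needs betaglycan to bind its receptors well, lies on the minus strand of chromosome 1 from 186354989 to 186438186. It measured 28.9, 24.8 and 29.1 CPM in Ctrl and 43.1, 53.5 and 40.7 CPM with BMP7. The groups were again apart, with BMP7 replicate 3 standing above the other BMP7 libraries. The rise was 1.66-fold (log2 fold change 0.73, standard error 0.10, adjusted p = 7.89e-05 from edgeR).

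Per kilobase of summed exon length, the scale on which levels of different genes are compared, the TGF-beta ligands together measured 43.3, 43.1 and 43.4 CPM in Ctrl and 92.8, 101 and 88.1 CPM with BMP7. The Ctrl libraries were nearly level with each other and every BMP7 library was above them, with a ratio of means of 2.17 (two-sided exact permutation p = 0.1, which is the lowest value possible with 3 libraries a group). On this scale *Tgfb3* was the most abundant ligand in every library. Its share of the sum was 56.8%, 53.6% and 50.8% in Ctrl and 66.3%, 65.4% and 66.3% with BMP7. Without division by length, its share of the counts was 45.9%, 42.9% and 40.1% in Ctrl, against 38.2%, 43.5% and 44.2% for *Tgfb1*. With BMP7 it led on that scale too, at 56.0%, 54.9% and 56.1%. The mean share was 53.7% ± 2.99 in Ctrl and 66.0% ± 0.543 with BMP7 (SD, n = 3), 12.3 points apart with no overlap (exact permutation p = 0.1). The share of *Tgfb1* went from 35.3% ± 3.13 to 25.6% ± 0.127 although its level rose. The ratio of *Tgfb2* to *Tgfb1* was 0.315 in Ctrl and 0.327 with BMP7 and overlapped between groups (exact permutation p = 0.8).

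The activin beta subunits moved in opposite directions. *Inhba* encodes the beta A subunit, the monomer of activin A, and lies on the plus strand of chromosome 13 from 16186436 to 16206206. It measured 58.2, 75.7 and 52.9 CPM in Ctrl and 96.3, 113 and 98.7 CPM with BMP7. Ctrl replicate 2 was well above the other Ctrl libraries but below every BMP7 library. The rise was 1.65-fold (log2 fold change 0.73, standard error 0.10, adjusted p = 0.000129 from edgeR).

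*Inhbb* encodes the beta B subunit, the monomer of activin B, and lies on the minus strand of chromosome 1 from 119343195 to 119349978. It measured 54.8, 49.7 and 49.0 CPM in Ctrl and 33.3, 36.8 and 33.2 CPM with BMP7. It was the only member called lower, and every BMP7 library lay below every Ctrl library. The mean went from 51.2 ± 3.16 to 34.4 ± 2.06 CPM (SD, n = 3 each), to 0.674 of the Ctrl level (log2 fold change -0.57, standard error 0.08, adjusted p = 5.48e-05 from edgeR). At a fold change threshold of 1.5 in place of 1.2, *Inhbb* was no longer called and no member was lower.

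The ratio of *Inhba* to *Inhbb* per kilobase was 0.707, 1.01 and 0.718 in Ctrl and 1.92, 2.05 and 1.98 with BMP7. On this scale *Inhbb* was the more abundant beta subunit in 2 of the 3 Ctrl libraries and about level with *Inhba* in Ctrl replicate 2. *Inhba* was the more abundant in all 3 BMP7 libraries. Without division by length, *Inhba* made up 51.5%, 60.3% and 51.9% of the beta subunit counts in Ctrl and 74.3%, 75.5% and 74.9% with BMP7. Which subunit led in Ctrl thus depends on the scale, while the rise of the *Inhba* share does not. The log2 ratio differed by 1.31 between the groups (exact permutation p = 0.1). *Inhba* made up 44.5% ± 5.03 of the beta subunit level in Ctrl and 66.5% ± 0.721 with BMP7 (SD, n = 3). The summed beta subunit level was 22.0, 23.5 and 19.8 CPM per kilobase in Ctrl and 22.9, 26.4 and 23.2 with BMP7, and the groups overlapped (ratio of means 1.11, exact permutation p = 0.3).

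*Inha* encodes the alpha subunit, which turns a beta subunit into an inhibin, and lies on the plus strand of chromosome 1 from 75483721 to 75487010. It had 0, 1 and 2 counts in the Ctrl libraries and 0 in each BMP7 library, beside 1081 to 1540 counts of *Inhba* in a Ctrl library and 1381 to 2552 in a BMP7 library. Per kilobase the 3 Ctrl libraries together held 1.52 alpha units for every 1000 beta units (95% exact Poisson interval 0.313 to 4.44), and the BMP7 libraries held 0, for which the same interval reaches 1.86 and a floor of 3 counts over the group 1.51. These bounds cover counting error alone. At the upper limit of the interval the beta subunits stood at 225 times the alpha subunit in Ctrl and at 538 times with BMP7. Both groups were at or under the floor, so no fold between them could be measured, and a change in the alpha to beta ratio was not detectable at this depth.

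**Figure D2:**
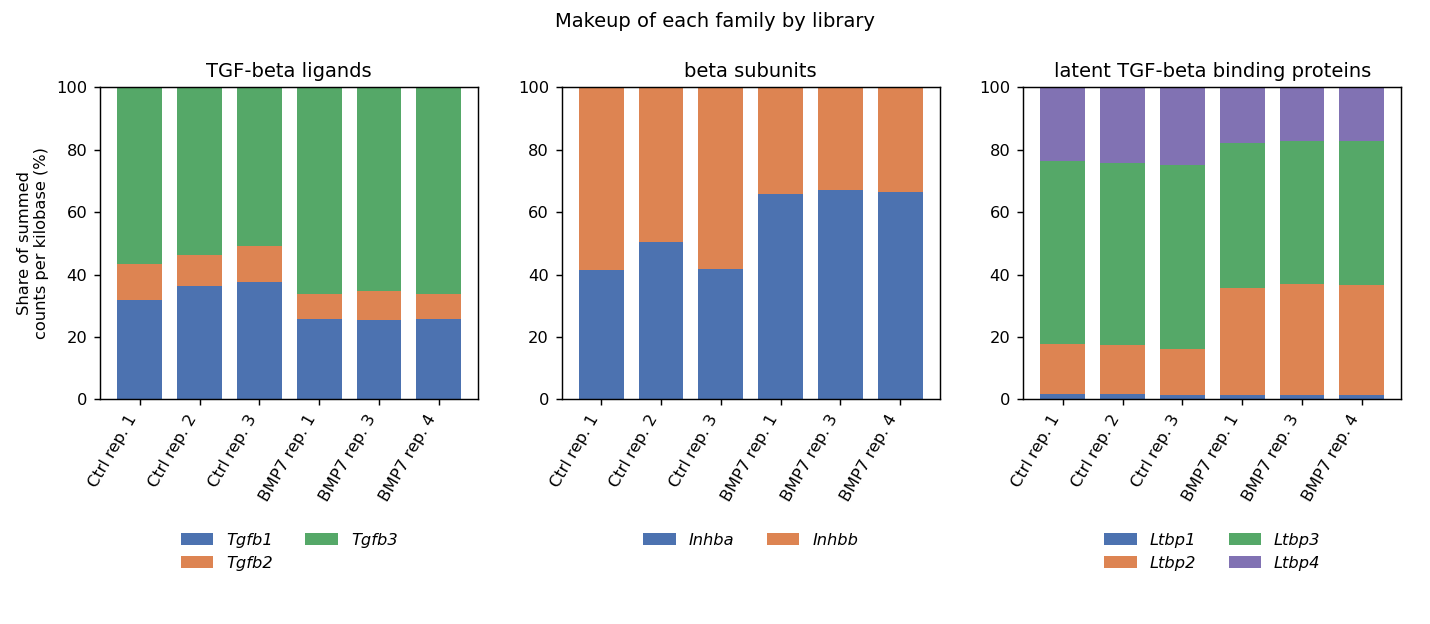
Stacked bars of each gene's share of its family's summed counts per kilobase, in percent, for the TGF-beta ligands, the beta subunits and the latent TGF-beta binding proteins, with 1 bar for each of the 6 libraries. The *Tgfb3* share lies at 50.8% to 56.8% in Ctrl and 65.4% to 66.3% with BMP7, the *Inhba* share at 41.4% to 50.3% and 65.8% to 67.2%, and the *Ltbp2* share at 14.6% to 16.1% and 34.4% to 35.4%.

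Of the latent TGF-beta binding proteins only *Ltbp2* was called. It is the member of the family known not to bind latent TGF-beta, and its protein associates with fibrillin microfibrils. The gene lies on the minus strand of chromosome 12 from 84829986 to 84923306, and it measured 59.1, 54.6 and 57.6 CPM in Ctrl and 172, 189.9 and 171 CPM with BMP7. The lowest BMP7 library was far above the highest Ctrl library. The rise was 3.11-fold, the largest of the 9 members tested (log2 fold change 1.64, standard error 0.07, adjusted p = 3.57e-11 from edgeR, rank 123 among all genes tested). Of its exon bases 9.34% are shared with *D030025P21Rik* on the plus strand, which had 26 to 30 counts in a Ctrl library and 75 to 110 in a BMP7 library. Without strand, fragments of the 2 genes over their shared bases cannot be told apart and were given to neither.

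*Ltbp1*, a binding protein that links latent TGF-beta to fibronectin and fibrillin, was the least abundant of the family. It lies on the plus strand of chromosome 17 from 75312563 to 75699507 and measured 8.09, 8.21 and 7.97 CPM in Ctrl and 8.43, 10.4 and 9.69 CPM with BMP7. The groups did not overlap, but BMP7 replicate 1 was close to Ctrl, and the gene was not called (log2 fold change 0.24, standard error 0.13, adjusted p = 0.241 from edgeR). BMP7 replicate 1 alone gave a log2 fold change of 0.06.

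*Ltbp3*, which binds latent TGF-beta as *Ltbp1* does and is known from skeleton and teeth, lies on the plus strand of chromosome 19 from 5790932 to 5808560 and was the most abundant of the family, at 227 to 258 CPM in Ctrl and 249 to 272 CPM with BMP7. The groups overlapped (log2 fold change 0.10, standard error 0.06, adjusted p = 0.334 from edgeR). *Ltbp4*, known for its part in elastic fibre assembly, lies on the minus strand of chromosome 7 from 27004561 to 27037117 and measured 67.4 to 77.2 CPM in Ctrl and 66.5 to 73.5 CPM with BMP7. These groups overlapped as well (log2 fold change -0.02, standard error 0.07, adjusted p = 0.917 from edgeR), and leaving out Ctrl replicate 3 turned the sign, as did leaving out BMP7 replicate 4.

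The summed level of the latent TGF-beta binding proteins was 44.9, 42.9 and 48.2 CPM per kilobase in Ctrl and 61.0, 65.6 and 59.5 with BMP7. The groups did not overlap (ratio of means 1.37, exact permutation p = 0.1), and *Ltbp2* went from 15.4% ± 0.745 to 35.0% ± 0.496 of this sum (SD, n = 3). Set against the summed TGF-beta ligands, the log2 ratio was 0.05, -0.0083 and 0.15 in Ctrl and -0.61, -0.62 and -0.57 with BMP7. The difference was -0.66, with every BMP7 library below every Ctrl library (exact permutation p = 0.1). Without *Ltbp2*, a choice made after seeing the data, the log2 ratio was -0.20, -0.25 and -0.08 in Ctrl and -1.21, -1.25 and -1.19 with BMP7, a difference of -1.04 (exact permutation p = 0.1). Of the ratios and sums given, the ratio of *Tgfb2* to *Tgfb1*, the shares other than that of *Tgfb3* and the summed levels were chosen after values had been seen.

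In the order of mean levels per kilobase, Ctrl ran from *Ltbp3* (26.6 CPM per kilobase) over *Tgfb3* (23.2), *Tgfb1* (15.2), *Inhbb* (12.03), *Ltbp4* (11), *Inhba* (9.74), *Ltbp2* (6.98) and *Tgfb2* (4.77) to *Ltbp1* (0.757) and *Inha* (0.0332). The ranges of *Inhbb* and *Ltbp4* overlapped, as did those of *Ltbp4* and *Inhba*, and no other neighbours did. With BMP7 the order ran from *Tgfb3* (62.0 CPM per kilobase) over *Ltbp3* (28.6), *Tgfb1* (24.1), *Ltbp2* (21.7), *Inhba* (16.1), *Ltbp4* (10.9), *Inhbb* (8.09) and *Tgfb2* (7.90) to *Ltbp1* (0.891). The ranges of *Tgfb1* and *Ltbp2* overlapped there, and those of *Inhbb* and *Tgfb2*. *Tgfb3* and *Ltbp3* changed places at the head of the order, and mean *Inhbb* moved from above mean *Inhba* to below it. In Ctrl the ranges of *Inhbb* (11.5 to 12.9) and *Inhba* (8.27 to 11.8) overlapped, although *Ltbp4* stands between them. Both shifts hold per kilobase only. In CPM not divided by length, mean *Ltbp3* stayed above mean *Tgfb3* with BMP7 (259 against 209.7). On that scale *Inhba* was above *Inhbb* in Ctrl already (means of 62.3 and 51.2 CPM).

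**Figure D3:**
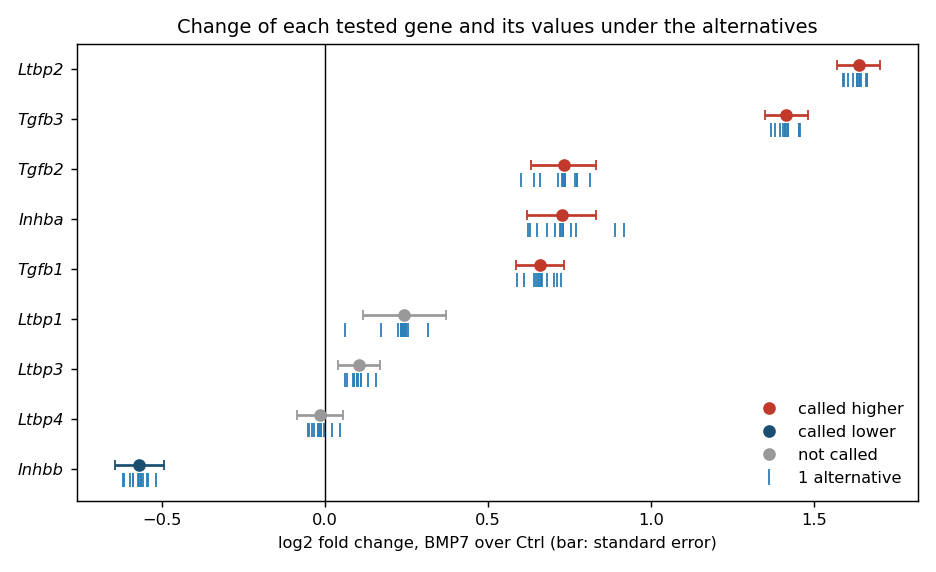
Log2 fold change of BMP7 over Ctrl from edgeR for each of the 9 members tested, as a point coloured by call with its standard error as a bar, and blue ticks below it for the values under 13 alternatives. *Ltbp2* (1.64) and *Tgfb3* (1.42) lie farthest to the right, *Inhbb* (-0.57) alone lies clearly to the left, and *Ltbp4* lies at -0.02.

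The set of promoters used, from RefSeq's GRCm38.p6 annotation, held 9 of the 10 members, with 12 promoters in all. The 250 bases before the start were searched on both strands. These coordinates are of GRCm38.p6 and not of the mm39 annotation used above. The motifs were GGCGCC and GCCGNCGC, which Smad1 and Smad5 are known to bind, and CAGAC and GTCTAGAC, which Smad3 and Smad4 are known to bind, and no motif contains another. The member with no entry in the set used was *Tgfb3*. The sequences before the 5 other members that were called are shown, which are *Ltbp2*, *Tgfb2*, *Tgfb1* and *Inhba*, which rose, and *Inhbb*, which fell, 5′ to 3′ on the gene's strand, with matches on either strand in capitals.
Ltbp2, chr12:84876492-84876741, minus strand: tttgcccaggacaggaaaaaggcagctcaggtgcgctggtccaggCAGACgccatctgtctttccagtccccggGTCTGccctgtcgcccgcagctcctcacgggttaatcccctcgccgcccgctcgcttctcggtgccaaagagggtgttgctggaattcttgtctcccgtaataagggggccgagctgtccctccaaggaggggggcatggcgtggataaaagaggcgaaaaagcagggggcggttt
Tgfb2, chr1:186705990-186706239, minus strand: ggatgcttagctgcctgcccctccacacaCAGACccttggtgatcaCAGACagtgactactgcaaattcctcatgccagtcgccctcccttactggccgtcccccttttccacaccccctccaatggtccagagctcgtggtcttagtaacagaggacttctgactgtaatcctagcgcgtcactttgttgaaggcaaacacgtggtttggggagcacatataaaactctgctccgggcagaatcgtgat
Tgfb1, chr7:25686752-25687001, plus strand: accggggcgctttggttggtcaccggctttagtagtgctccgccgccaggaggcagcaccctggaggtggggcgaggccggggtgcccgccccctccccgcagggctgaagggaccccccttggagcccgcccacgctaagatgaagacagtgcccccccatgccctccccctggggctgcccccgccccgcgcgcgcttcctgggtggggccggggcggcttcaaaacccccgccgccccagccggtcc
Inhba, chr13:16011601-16011850, plus strand: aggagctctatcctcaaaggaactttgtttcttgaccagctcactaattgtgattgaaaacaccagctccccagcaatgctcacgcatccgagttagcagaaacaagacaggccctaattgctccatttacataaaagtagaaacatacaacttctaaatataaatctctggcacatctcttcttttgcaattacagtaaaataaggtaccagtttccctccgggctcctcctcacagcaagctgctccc
Inhbb, chr1:119422249-119422498, minus strand: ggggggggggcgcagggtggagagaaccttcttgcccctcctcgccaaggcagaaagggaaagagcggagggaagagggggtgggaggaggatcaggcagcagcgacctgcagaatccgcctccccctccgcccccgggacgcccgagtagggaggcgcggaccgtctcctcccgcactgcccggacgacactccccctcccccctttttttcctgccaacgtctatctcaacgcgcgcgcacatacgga
Each of the *Ltbp2* and *Tgfb2* sequences holds 2 matches to CAGAC or its reverse complement GTCTG, and the *Tgfb1*, *Inhba* and *Inhbb* sequences hold no match to any of the 4 motifs. Matches to CAGAC also stand before members that were not called, with 1 and 2 in the promoters of *Ltbp1* and 1 in that of *Ltbp3*, and 1 stands before *Inha*. CAGAC is found in 42.2% of all 32851 promoters of the same length, so its presence is common. GGCGCC is found in 9.59% of them, GCCGNCGC in 6.89% and GTCTAGAC in 0.167%. Among the members GGCGCC occurs in 2 overlapping promoters of *Ltbp4*, which was not called, and in none of the 5 sequences shown. The *Inhba* sequence has 43.2% G and C and the *Inhbb* sequence 68%.

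Other genes of the branch were described from 6 lists of 76 genes, of which 59 passed the filter. Of these 14 were called higher and 5 lower, against 5.99% and 5.38% of all genes tested, with a median log2 fold change of 0.04. The lists too were chosen with earlier results of these data known, so these counts describe them and do not test them. Of 14 direct partners of the members, named whatever their values, 13 were tested, 0 were called higher and 1 was called lower. These 14 are not all that can act on the members. Among processing and activation genes outside them, *Pcsk6* was called higher and *Thbs1*, *Itgb3* and *Plat* lower.

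Of the 8 receptors, 7 were tested, 0 were higher and 1 was lower, with a median log2 fold change of -0.08. *Tgfbr3*, or betaglycan, presents TGF-beta 2 to its receptors and binds inhibin. It measured 3.52, 5.11 and 4.99 CPM in Ctrl and 1.32, 2.44 and 1.93 CPM with BMP7. It fell without overlap (log2 fold change -1.22, standard error 0.24, adjusted p = 0.00265 from edgeR) and was low in both groups. *Tgfbr1* and *Tgfbr2*, the signaling receptors of TGF-beta, measured 112 and 90.5 CPM in Ctrl and 112 and 88.8 CPM with BMP7 (log2 fold changes 0.0015 and -0.03). The activin receptors *Acvr1b*, *Acvr2a* and *Acvr2b* had log2 fold changes of -0.08, 0.17 and -0.30, with no call (lowest adjusted p = 0.185 from edgeR).

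Of 11 extracellular antagonists and other ligands of the branch, 3 were tested and 0 were called, with a median log2 fold change of 0.20. *Fst* encodes follistatin, which binds and blocks activin, and measured 6.26, 7.57 and 9.05 CPM in Ctrl and 6.06, 7.60 and 5.89 CPM with BMP7 (log2 fold change -0.21, standard error 0.16). *Fstl3*, of the same function, went from a mean of 1.45 to 1.93 CPM (log2 fold change 0.41, standard error 0.27, adjusted p = 0.357 from edgeR). Per kilobase both were below the beta subunits, at 1.66 CPM per kilobase for *Fst* in Ctrl against 12.03 for *Inhbb*.

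Among 18 genes for ligand processing and activation of the latent complex, 17 were tested, 1 was higher and 3 were lower (median log2 fold change -0.10). *Furin*, the protease that cleaves the TGF-beta precursor, measured 114, 118 and 117 CPM in Ctrl and 118, 120.3 and 121 CPM with BMP7 (log2 fold change 0.04, adjusted p = 0.746 from edgeR). The related proprotein convertase *Pcsk6* rose from 21.0 to 32.1 CPM (log2 fold change 0.61, standard error 0.08, adjusted p = 4.5e-05 from edgeR). *Thbs1*, whose product thrombospondin 1 can release active TGF-beta from the latent complex, measured 84.0, 99.4 and 85.4 CPM in Ctrl and 48.0, 49.6 and 53.2 CPM with BMP7. It fell to 0.561 of Ctrl with no overlap (log2 fold change -0.83, standard error 0.08, adjusted p = 8.54e-07 from edgeR). The integrin subunit genes *Itgav*, *Itgb6* and *Itgb8*, whose dimers pull on the latent complex, had log2 fold changes of 0.04, -0.33 and -0.23. *Itgb8* passed by adjusted p (0.0481 from edgeR) but not by fold change. The other genes called lower were *Itgb3* and *Plat*.

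Of 9 genes for the matrix scaffold that holds the latent complex, 4 were tested and 0 were called. *Fn1* (fibronectin) had a mean of 1418 CPM in Ctrl and 1391 CPM with BMP7 (log2 fold change -0.03), and *Fbn1* (fibrillin 1), at means of 0.406 and 0.361 CPM, was below the filter. Fibroblast markers summed to 115 to 126 CPM in Ctrl and 103 to 122 CPM with BMP7. Most of the sum was *Col1a1* (means of 71.1 CPM in Ctrl and 53.2 CPM with BMP7) and *Pdgfra* (40.4 and 43.7 CPM). Of the 7 fibroblast markers tested, 4 were called higher (*Col1a2*, *Col3a1*, *Dcn* and *Dpt*) and 1 lower (*Col1a1*). Of those 4, *Col1a2* was above Ctrl in every BMP7 library (3.76, 5.78 and 3.80 CPM, against at most 1.62). In BMP7 replicate 1 *Col3a1* (3.69 CPM) and *Dcn* (1.74 CPM) were just above the highest Ctrl library (3.52 and 1.73 CPM), and *Dpt* (0.279 CPM) was within the Ctrl range. *Pecam1*, the 1 endothelial marker tested, was called higher (log2 fold change 0.77), and *Kdr*, *Emcn* and *Cldn5* had at most 3 counts in any library. The part of the fibroblast and endothelial markers in the members' changes was not tested.

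Of 15 Smads and intracellular regulators, 14 were tested, 5 were higher and 0 were lower (median log2 fold change 0.04). Those that rose are known brakes on signaling, namely *Smad7*, *Skil*, *Pmepa1*, *Bambi* and *Ski*, and BMPs are known to induce *Smad7* as well. The other regulators tested were not called. These were *Smurf1*, *Smurf2*, *Tgif1*, *Nedd4l*, *Ppm1a* and *Zfyve9* (log2 fold changes -0.01, 0.26, -0.06, -0.05, 0.09 and -0.04). *Smurf2* passed by adjusted p (0.00736 from edgeR) but not by fold change (1.196), and every BMP7 library was above every Ctrl library. *Smad7* rose from 5.10, 4.82 and 4.94 CPM in Ctrl to 35.3, 37.6 and 31.1 CPM with BMP7 (log2 fold change 2.81, standard error 0.11, adjusted p = 2.71e-11 from edgeR). *Smad2*, *Smad3* and *Smad4*, which carry the signal, had log2 fold changes of -0.02, -0.19 and -0.0033 and were not called.

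Of 16 genes known to respond to TGF-beta or activin, 15 were tested, 8 were higher and 1 was lower (median log2 fold change 0.56). *Junb*, an AP-1 subunit, had the largest rise and measured 100.2, 94.5 and 92.3 CPM in Ctrl and 278, 242 and 234 CPM with BMP7 (log2 fold change 1.39, standard error 0.07, adjusted p = 7.96e-10 from edgeR). Also higher were *Snai1* (1.35), *Ccn2* (0.79), *Cdkn1a* (0.78), *Snai2* (0.70), *Tgfbi* (0.56) and *Timp3* (0.53), each given as a log2 fold change. *Col1a1*, a fibrillar collagen gene that TGF-beta induces in fibroblasts, went the other way, from 65.1, 69.5 and 78.8 CPM in Ctrl to 48.9, 58.1 and 52.6 CPM with BMP7 (log2 fold change -0.41, standard error 0.08, adjusted p = 0.00243 from edgeR). Several of these genes are also known to respond to BMPs, and which ligand acted was not tested.

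**Figure D4:**
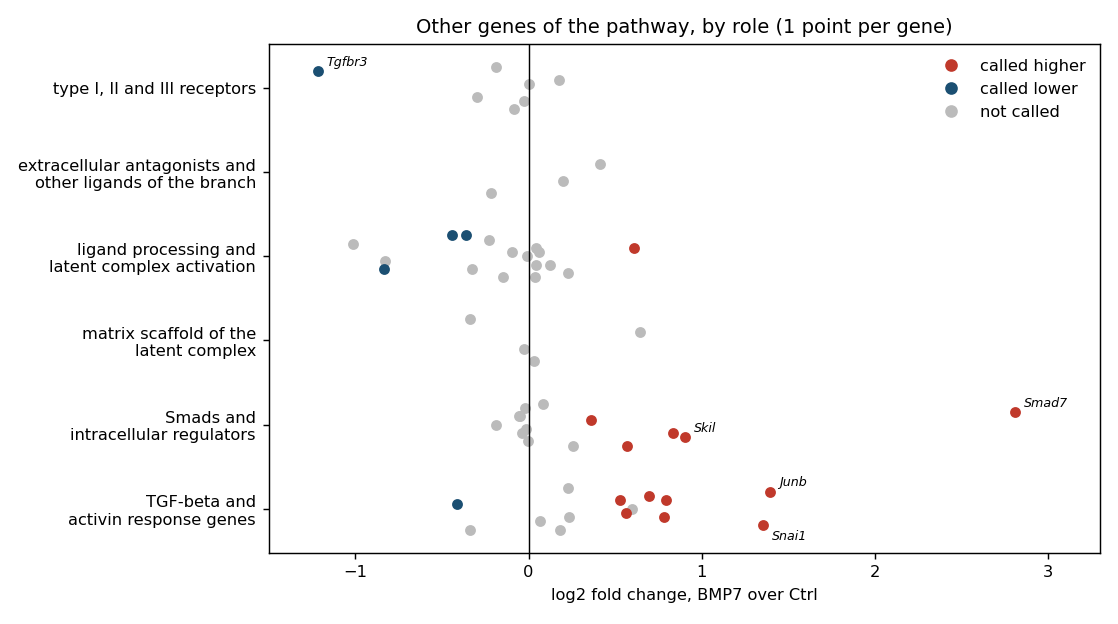
Log2 fold change of BMP7 over Ctrl for the tested genes of the 6 lists, 1 point per gene in each list, coloured by call, with 1 response gene left out. *Tgm2*, which is in both the scaffold and the response list, is drawn in each. Apart from *Tgfbr3* (-1.22), the receptor genes lie between -0.30 (*Acvr2b*) and 0.17 (*Acvr2a*). The scaffold genes lie between -0.34 (*Tgm2*) and 0.65 (*Fbn2*), none of them called. *Smad7* (2.81), *Junb* (1.39), *Snai1* (1.35) and *Skil* (0.90) lie farthest to the right.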

How the data were processed

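Poly(A) RNA of 6 HC11 libraries was sequenced. The authors aligned read pairs with subjunc, counted fragments per gene with featureCounts 2.0.1 (the submitters' processing notes name Subread 2.0.3) and deposited unnormalized counts. Alignment was to mm10 and the annotation was GENCODE vM30 by the study's methods, while the file header names an mm39 annotation, whose coordinates are given. Fragments were counted on exons without strand, and those mapping to several places or genes were left out. BMP7 columns carry the numbers 1, 3 and 4, which their labels do not repeat, so they were assigned to the group alone.

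Counts were analysed in R 4.3.3 with edgeR 4.0.16 (filterByExpr, TMM, quasi-likelihood test of all 6 libraries, Benjamini-Hochberg over 15733 genes). The common biological coefficient of variation was 0.0696, with 4 residual degrees of freedom. Standard errors were taken as log2 fold change over the root of F. Ratios and shares used counts per kilobase of summed exon length, over all isoforms, with 0.5 counts added in log2 ratios, and two-sided exact permutation tests of 3 libraries against 3. Within a group, pairs of libraries differed beyond sampling noise (chi-square per degree of freedom 5.34 to 12.9). The test was tried on simulated counts first.

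Members and gene lists were chosen with earlier results of these data known. Genes named are all members, 14 direct partners whatever their values, and in each list the called gene with the largest rise and the largest fall at a mean of at least 1 CPM. Other genes were named after their values were seen, among them the remaining called genes of the lists. *Cripto* was matched as *Tdgf1*. The list of response genes holds 1 gene that is counted but not reported here. BLAST 2.17.0 was used to look for near-identical copies among GENCODE vM21 transcripts at 95% identity over at least 100 bases, which found for *Tgfb3*, *Ltbp2* and *Ltbp3* overlapping genes of the other strand and for the other members none. Alternatives were DESeq2 1.42.0, RLE and upper-quartile scaling, other filters and thresholds, leaving out each library, a replicate block, BMP7 replicate 1 alone, other added counts, counts not divided by length and, chosen after seeing the data, a sum without *Ltbp2*.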

Additional observations from a re-analysis of the deposited data

How the results depend on the processing

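All 117 fold changes of the 9 members under 13 alternatives each kept their call, and all but 2 their direction. *Ltbp4*, not called, ran from -0.053 without Ctrl replicate 2 to 0.047 without Ctrl replicate 3 and was 0.021 without BMP7 replicate 4. With BMP7 replicate 1 alone, 1 of the 13, the spread comes from the Ctrl libraries only. The called members ranged from 0.59 to 0.72 for *Tgfb1*, 0.60 to 0.81 for *Tgfb2*, 1.37 to 1.46 for *Tgfb3*, 0.62 to 0.92 for *Inhba*, -0.62 to -0.52 for *Inhbb* and 1.59 to 1.66 for *Ltbp2* (log2). A fold change threshold of 1.5 left 476 genes higher and 304 lower, with 0 members and 2 pathway genes lower. Leaving out 1 library at a time gave 723 to 1081 genes higher and 563 to 902 lower, the fewest lower without Ctrl replicate 2. DESeq2 gave 925 higher and 739 lower. With 0.5 counts added, the log2 ratio of *Inha* differed between groups by -1.27 against both beta subunits, -1.85 against *Inhba* and -0.54 against *Inhbb*, and with 2 counts added by -0.49, -1.08 and 0.23. With 1 library left out these ran from -1.94 (without Ctrl replicate 1) to -0.69 (without Ctrl replicate 3), from -2.47 to -1.23 and from -1.25 to -0.0014, in each case without the same Ctrl libraries. The added count sets these values, since *Inha* was at 0 in 4 libraries, and with none added no value was obtained. The difference in the log2 ratio of binding proteins to TGF-beta ligands was -0.59 without division by length and -1.04 without *Ltbp2*, the latter chosen after seeing the data.

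Only the numbers 1 and 3 were shared by column names of both groups, and nothing else ties these libraries. Their deviations from the group means correlated at -0.01 and 0.12. A fit with the replicate block gave 1152 genes higher and 959 lower and changed no member's call. In that fit Ctrl replicate 2 and BMP7 replicate 4 each stood alone in a block. Its BMP7 effect thus rested only on the libraries numbered 1 and 3, so it does not check all 6 libraries.

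With 3 libraries a group, 0.1 is the smallest p of an exact permutation test. *Inha* was at or under 3 counts in each group, which leaves the alpha to beta ratio unmeasured.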
